A study of Homo sapiens with 18 samples.

Results

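The transcripts of 48 genes of DNA replication and of the G1/S transition, the point at which a cell commits to copying its genome, were followed in the human line OCI-AML1, cells of acute myeloid leukaemia that are labelled wild type. The 48 genes were chosen by symbol, each symbol matched 1 gene identifier, and all 48 were among the 20920 genes with enough counts to be tested. Polyadenylated RNA was sequenced from cells given AML874, SEL120-34A or the solvent DMSO for 8 h or 24 h, with 3 libraries in each of the 6 groups. SEL120-34A blocks the Mediator kinases CDK8 and CDK19; Mediator is the large complex through which transcription factors act on RNA polymerase II. AML874 is known here only by its code name, and the labels state no dose for either compound. The title of the study names inhibition of the Mediator kinases, so each compound was set against DMSO at the same time, the compounds against each other, and 24 h against 8 h. All groups come from 1 cell line, and the labels do not say whether the 3 libraries of a group are separate cultures. The p-values therefore measure the spread between these libraries, which may be technical.

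Replication starts at origins in G1, where the origin recognition complex, CDC6 and CDT1 load the ring-shaped MCM2-7 helicase, a step called licensing. At the onset of S phase CDC45 and the GINS complex join the rings, and the polymerases, the sliding clamp PCNA and its loader follow. Many of these genes are targets of the E2F transcription factors, which the retinoblastoma protein RB holds back until cyclin D and cyclin E kinases phosphorylate it.

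The start sites of 41 of the 48 genes had windows in the RefSeq promoter table of build GRCh38.p14, 54 windows in all. Each window runs from 250 bases before to 50 bases after a start. The E2F element, searched as TTTCCCGC, TTTCGCGC, TTTGCCGC or TTTGGCGC on both strands, was found in 24 of the 54 windows (44.4%), which belong to 23 genes, and in 3.31% of the 35116 windows of all genes. The CCAAT box, searched as CCAAT on both strands, was found in 57.4% of the 54 windows and in 34.6% of all windows. The GC box, GGGCGG on both strands, was found in 75.9% against 45.0%, and the cell cycle homology region, TTTGAA or TTCGAA on both strands, in 5.56% against 16.4%. An E2F element that ends in CCGC can share bases with a GC box. A match of letters is a description and not a bound site. The 150 bases just before the start are shown for 6 genes whose values carry the results below, with E2F elements and CCAAT boxes on either strand in capitals. E2F2, UHRF1 and POLA1 were among the genes that fell most at 8 h, CDT1 and MCM7 changed in opposite directions at different times, and RRM2 fell without an E2F element of these letters in this stretch.
E2F2, chr1:23531234-23531383, minus strand: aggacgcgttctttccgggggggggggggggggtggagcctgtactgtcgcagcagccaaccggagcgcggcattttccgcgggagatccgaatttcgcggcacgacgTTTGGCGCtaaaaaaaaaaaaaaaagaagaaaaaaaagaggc
UHRF1, chr19:4909351-4909500, plus strand: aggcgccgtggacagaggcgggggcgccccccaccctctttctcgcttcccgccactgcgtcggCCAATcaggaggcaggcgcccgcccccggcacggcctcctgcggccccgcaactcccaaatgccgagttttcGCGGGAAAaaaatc
POLA1, chrX:24693768-24693917, plus strand: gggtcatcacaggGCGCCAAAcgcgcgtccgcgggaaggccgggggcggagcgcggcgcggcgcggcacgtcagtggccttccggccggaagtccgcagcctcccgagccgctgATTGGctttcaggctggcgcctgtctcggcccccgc
CDT1, chr16:88803639-88803788, plus strand: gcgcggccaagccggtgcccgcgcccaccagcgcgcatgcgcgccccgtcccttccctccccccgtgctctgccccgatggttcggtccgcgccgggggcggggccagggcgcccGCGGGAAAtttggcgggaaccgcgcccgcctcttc
MCM7, chr7:100101398-100101547, minus strand: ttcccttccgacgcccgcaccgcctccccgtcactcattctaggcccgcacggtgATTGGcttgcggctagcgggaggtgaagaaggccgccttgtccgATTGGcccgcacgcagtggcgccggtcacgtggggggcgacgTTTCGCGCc
RRM2, chr2:10122589-10122738, plus strand: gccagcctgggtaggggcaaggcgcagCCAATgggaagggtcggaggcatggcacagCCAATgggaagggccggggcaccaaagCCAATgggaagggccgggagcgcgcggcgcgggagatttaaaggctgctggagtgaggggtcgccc
The E2F element shown lies 42 bases before the start in E2F2, 14 in UHRF1, 137 in POLA1, 35 in CDT1 and 9 in MCM7, counted to its first base, and RRM2 holds 3 CCAAT boxes instead. Outside the stretches shown, the same MCM7 window holds another E2F element 187 bases before the start. Another UHRF1 window holds one 160 bases before its own start.

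Counts in genes were 98975944 to 142496541 per library, and a gene with 0 counts could be present at up to 3 counts, or 0.0211 to 0.0303 CPM, the unit of counts scaled to library size, a limit for counting error only. Haematopoietic and myeloid markers were present in every library, with PTPRC at 288 to 363 CPM, SPI1 at 166 to 249, CD33 at 52.4 to 101, LYZ at 151 to 353 and MPO at 4.25 to 37.6, whereas ANPEP did not exceed 0.0561 CPM. Of the markers of other cell types, ITGA2B reached 2.66 CPM and CD79A 1.6 CPM, and the others stayed at or under 0.43 CPM. HBA1, HBB and DCN were at 0 in all 18 libraries. The sum of the epithelial markers EPCAM, KRT8, KRT18 and CDH1 was 0.0085 to 1.5 CPM with AML874 at 24 h. In every other group that sum was at most 0.0304 CPM. Targets of the hypoxia factor HIF differed between libraries of 1 group, with a mean log2 CPM of 4.93 to 5.55 with SEL120-34A at 8 h and 5.20 to 5.85 with DMSO at 8 h. Of 21 HIF targets tested, 11 fell with AML874 and 9 with SEL120-34A after 8 h, and 10 with AML874 and 8 with SEL120-34A after 24 h, and none rose, where 19.9%, 22.6%, 23.7% and 18.6% of all tested genes fell. ALDOA, the glycolytic aldolase A, was at -0.42 ± 0.06 and -0.47 ± 0.06 at 8 h and -0.83 ± 0.06 and -0.75 ± 0.06 at 24 h on the log2 scale, and ENO1, enolase 1, at -0.21 ± 0.03 and -0.23 ± 0.03 at 8 h and -0.33 ± 0.03 and -0.24 ± 0.03 at 24 h, for AML874 and SEL120-34A. Mitochondrial genes took 7.74 to 8.16% of the counts with AML874 at 24 h, against 6.11 to 6.18% with DMSO. The summed level of the 8 myeloid markers was 816 to 829 CPM with AML874 and 868 to 897 CPM with SEL120-34A at 24 h, against 989 to 1015 CPM with DMSO, and 1042 to 1056, 1070 to 1083 and 1106 to 1116 CPM at 8 h. The part of these differences in the results was not tested.

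The 48 genes were all well expressed, at 13.7 to 576 CPM on average over the 18 libraries. Levels of different genes were compared in TPM, transcript levels scaled for gene length. With DMSO at 24 h the order ran from PCNA (407 ± 10.6 TPM, SD, n = 3), TYMS (329 ± 4.42), MCM7 (322 ± 6.02), RRM2 (259.9 ± 6.23) and MCM4 (240.0 ± 13.2) down to E2F2 (11.1 TPM), with a median of 52.8 TPM. TYMS and MCM7 overlapped between libraries in this order, as did RRM2 and MCM4, and MCM3, MCM5 and MCM2 at 177, 176 and 175 TPM, whereas PCNA lay above both TYMS and MCM7.

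With AML874 at 8 h, 31 of the 48 genes fell and 3 rose at a Benjamini-Hochberg adjusted p under 0.05 in edgeR's quasi-likelihood test, where 19.9% of all tested genes fell and 19.7% rose. SEL120-34A at 8 h lowered 36 and raised 2, against 22.6% and 22.4% of all genes. At 24 h 31 genes fell and 3 rose with AML874, against 23.7% and 23.1% of all genes. With SEL120-34A at 24 h 20 fell and 6 rose, against 18.6% and 19.1% of all genes. These shares of all genes include genes with low counts, whereas the 48 are well expressed. When genes had to reach 1 CPM in 3 libraries, 13527 were tested. Of these, 3923 fell and 3519 rose with AML874 and 4181 fell and 3839 rose with SEL120-34A after 8 h. At 24 h 4118 fell and 4340 rose with AML874, and 3408 fell and 3707 rose with SEL120-34A. How far the level of the 48 genes widens the gap was not tested. The falls were mostly small. The median log2 change of the 48 genes was -0.13 with AML874 and -0.21 with SEL120-34A after 8 h, and -0.11 with AML874 and -0.06 with SEL120-34A after 24 h, while the median over all tested genes stayed within 0.01 of 0. A change of at least 0.5 on the log2 scale was reached by 2 genes with AML874 and 6 with SEL120-34A after 8 h, and by 2 with AML874 and 1 with SEL120-34A after 24 h. In bulk RNA, a smaller share of cells in late G1 and S phase cannot be told apart from less of these transcripts in each cell. When the 4 libraries that scored highest on the first component of within-group variation, which was oriented to the HIF targets, were left out, 34 genes fell with AML874 and 40 with SEL120-34A after 8 h, and 31 and 18 at 24 h. With counts scaled by library totals alone, 25 fell with AML874 and 31 with SEL120-34A after 8 h. The median of all genes was then 0.05 and 0.07, and 63.5% and 66.5% of all calls were rises. The scaling used here gave 49.8% and 49.8% rises, but it centres most genes near 0 by design. These values therefore cannot tell which scaling is right. Leaving out 1 library ended 4 of the 34 calls with AML874 (CCNE1, CDT1, FEN1, RFC5) and 2 of the 38 with SEL120-34A (CDC6, RFC4) at 8 h. At 24 h it ended 6 of the 34 calls with AML874 (CHAF1A, GINS2, MCM5, POLA2, TYMS, UNG) and 5 of the 26 with SEL120-34A (GMNN, ORC1, ORC6, PCNA, POLA1). CHAF1A, GINS2, MCM5 and TYMS also did not pass with AML874 at 24 h when genes had to reach 1 CPM in 3 libraries (adjusted p = 0.102 to 0.155). By role, the regulators of the G1/S transition had the lowest median change in each of the 4 comparisons, -0.45 with AML874 and -0.58 with SEL120-34A after 8 h and -0.38 and -0.32 after 24 h, as the plot of log2 changes by role shows.

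**Figure D1:**
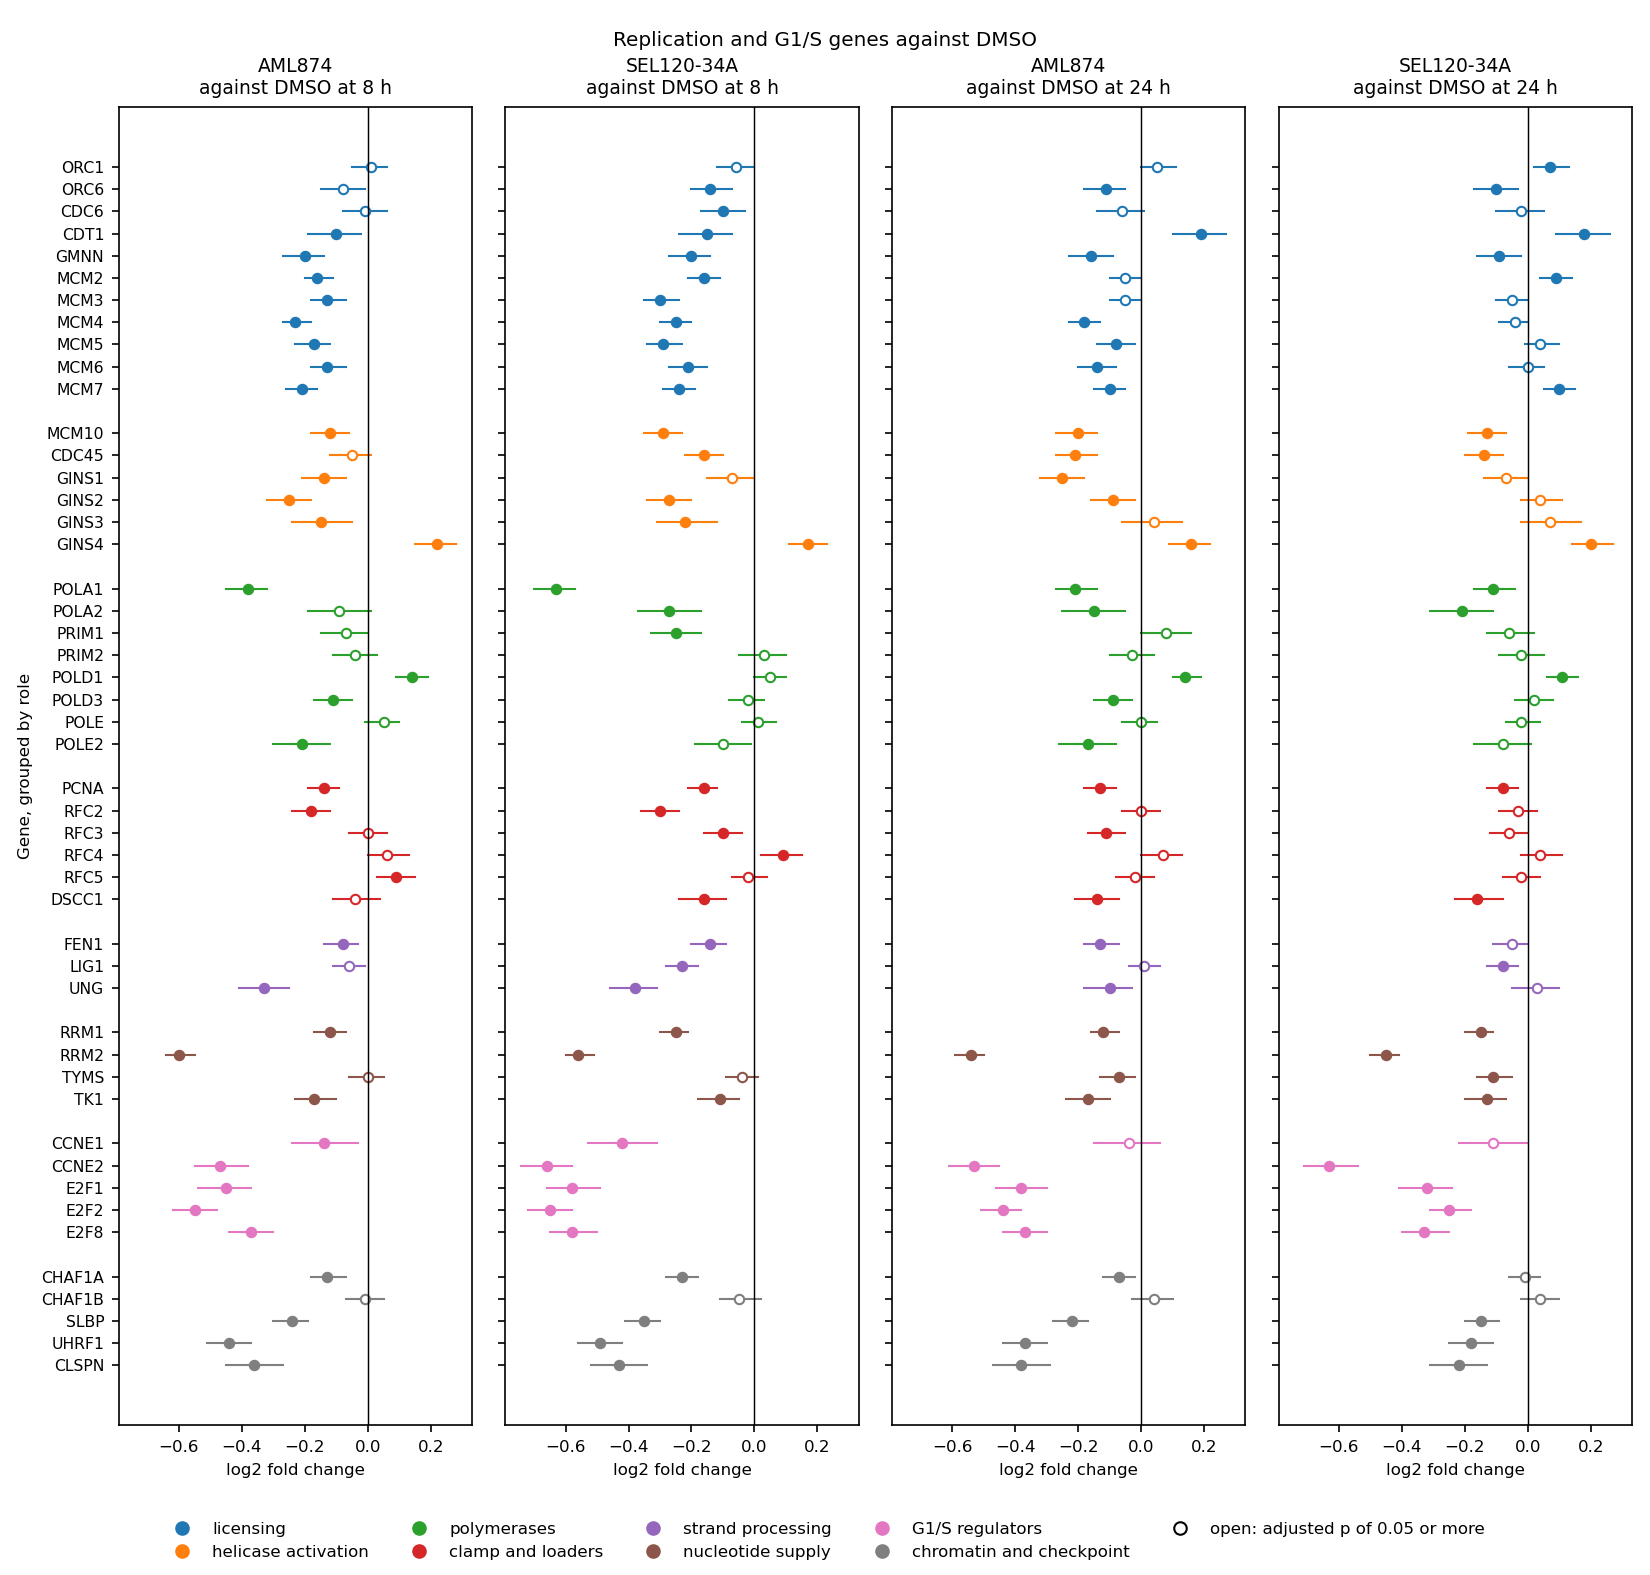
Log2 fold change against DMSO of each of the 48 genes (points) with its 95% interval (lines), for AML874 and SEL120-34A at 8 h and 24 h, n = 3 libraries a group; filled points passed an adjusted p of 0.05. CCNE2 and RRM2 lie far to the left, as does E2F2 except with SEL120-34A at 24 h. POLA1 does so with SEL120-34A at 8 h, and GINS4 lies to the right of 0 in all 4 panels.

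Of the G1/S regulators, 5 of 5 fell with each compound at 8 h, where 19.9% (AML874) and 22.6% (SEL120-34A) of all tested genes fell. At 24 h 4 of 5 fell with each compound, against 23.7% and 18.6% of all genes. CCNE2 (cyclin E2, chromosome 8, 94879770 to 94896678, minus strand), which activates CDK2 at the end of G1, fell in all 4 comparisons. At 8 h CCNE2 had 30.7, 32.1 and 30.2 CPM with AML874, 26.7, 28.1 and 26.5 CPM with SEL120-34A and 42.0, 42.6 and 43.8 CPM with DMSO. At 24 h it had 25.1, 25.4 and 27.6 CPM with AML874, 25.2, 23.6 and 24.2 CPM with SEL120-34A and 36.4, 36.7 and 39.6 CPM with DMSO. Every DMSO library lay above every treated library of its time. The log2 changes were -0.47 ± 0.04 (± SE) with AML874 and -0.66 ± 0.04 with SEL120-34A after 8 h, and -0.53 ± 0.04 and -0.63 ± 0.04 in the same order at 24 h, with adjusted p of at most 1.05e-11. Its paralog CCNE1 fell with both compounds at 8 h, at -0.14 ± 0.05 for AML874 and -0.42 ± 0.05 for SEL120-34A. At 24 h the CCNE1 values of -0.04 ± 0.05 and -0.11 ± 0.05 did not pass the test.

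E2F2 (chromosome 1, 23506430 to 23531220, minus strand), an activating member of the E2F family whose promoter stretch is printed above, had the lowest TPM of the 48 with DMSO at 24 h. At 8 h E2F2 had 30.2, 29.3 and 30.9 CPM with AML874, 27.8, 27.9 and 28.4 CPM with SEL120-34A and 43.8, 46.0 and 42.5 CPM with DMSO. E2F2 had 30.2, 30.8 and 31.1 CPM with AML874, 35.0, 34.6 and 36.0 CPM with SEL120-34A and 41.6, 41.8 and 41.9 CPM with DMSO at 24 h. The groups did not overlap at either time, and at 24 h the SEL120-34A libraries lay between those of AML874 and DMSO. The log2 changes were -0.55 ± 0.03 with AML874 and -0.65 ± 0.03 with SEL120-34A after 8 h, and -0.44 ± 0.03 and -0.25 ± 0.03 at 24 h. E2F1, the founding activator of the family, fell alongside it. E2F1 had 47.4, 49.9 and 51.7 CPM with AML874, 47.8, 42.8 and 46.1 CPM with SEL120-34A and 64.1, 72.1 and 67.5 CPM with DMSO at 8 h, log2 changes of -0.45 ± 0.04 and -0.58 ± 0.04. At 24 h its changes were -0.38 ± 0.04 with AML874 and -0.32 ± 0.04 with SEL120-34A. E2F8, an E2F that represses transcription and limits the others, fell as well, at -0.37 ± 0.04 and -0.58 ± 0.04 at 8 h and -0.37 ± 0.04 and -0.33 ± 0.04 at 24 h, so activators and the repressor moved in the same direction.

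**Figure D2:**
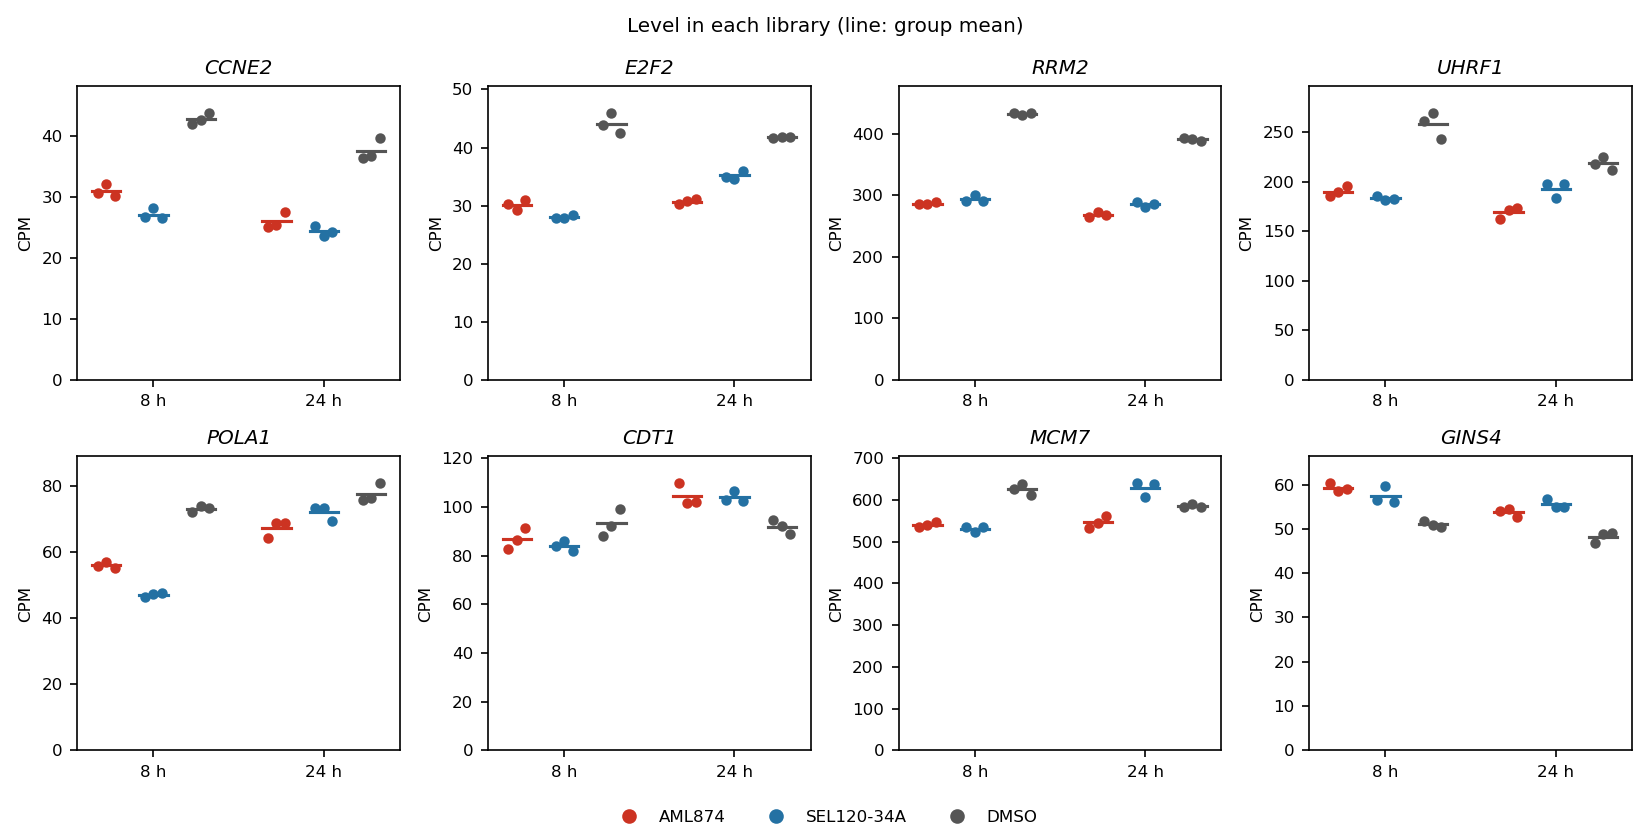
Level in CPM of 8 genes in each library (points) with the group mean (lines), for AML874, SEL120-34A and DMSO at 8 h and 24 h. DMSO lies highest for CCNE2, E2F2, RRM2, UHRF1 and POLA1 at both times, CDT1 and MCM7 change their order between the times, and GINS4 is lowest with DMSO.

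Of the 11 licensing genes, 8 fell with AML874 and 10 with SEL120-34A after 8 h and none rose. Among all tested genes 19.9% and 22.6% fell there. At 24 h 6 fell and 1 rose with AML874, against 23.7% and 23.1% of all genes. With SEL120-34A at 24 h 2 fell and 4 rose, against 18.6% and 19.1%, so the 2 falls lie near the share of all genes. The 6 subunits of the MCM2-7 ring, the helicase that unwinds DNA, all fell at 8 h with both compounds, at -0.13 to -0.23 on the log2 scale with AML874 and -0.16 to -0.30 with SEL120-34A. At 24 h MCM4, MCM5, MCM6 and MCM7 were still lower with AML874, whereas with SEL120-34A no subunit was lower and MCM2 and MCM7 were higher. MCM4 had 479.9, 487 and 485 CPM with AML874, 480.2, 469.7 and 478 CPM with SEL120-34A and 564, 580.2 and 552 CPM with DMSO at 8 h. At 24 h MCM4 had 468, 480.2 and 486 CPM with AML874, 537, 508 and 526 CPM with SEL120-34A and 538, 546 and 537 CPM with DMSO, with log2 changes of -0.18 ± 0.02 for AML874, which passed, and -0.04 ± 0.02 for SEL120-34A, which did not.

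MCM7 (chromosome 7, 100092728 to 100101940, minus strand) changed direction with SEL120-34A. At 8 h MCM7 had 534, 539 and 548 CPM with AML874, 534, 523 and 535 CPM with SEL120-34A and 625, 638 and 612 CPM with DMSO. At 24 h it had 532, 545 and 560.1 CPM with AML874, 639.7, 607 and 638 CPM with SEL120-34A and 583, 589 and 582 CPM with DMSO. The SEL120-34A libraries lay below all DMSO libraries at 8 h and above them all at 24 h, with log2 changes of -0.24 ± 0.02 (adjusted p = 5.05e-10) and 0.10 ± 0.02 (adjusted p = 0.000812). With AML874 MCM7 was lower at both times, -0.21 ± 0.02 and -0.10 ± 0.02. MCM2 crossed DMSO in the same way. MCM2 had 372, 382 and 382 CPM with AML874, 379.8, 374 and 379 CPM with SEL120-34A and 419, 436 and 411 CPM with DMSO at 8 h. At 24 h MCM2 had 389, 389.9 and 396 CPM with AML874, 439, 423 and 436 CPM with SEL120-34A and 415, 404 and 399 CPM with DMSO, which gave 0.09 ± 0.02 with SEL120-34A, higher in all 3 libraries, and -0.05 ± 0.02 with AML874, which did not pass. MCM5 and MCM6 fell at 8 h, at -0.17 ± 0.03 and -0.13 ± 0.03 with AML874 and -0.29 ± 0.03 and -0.21 ± 0.03 with SEL120-34A, and at 24 h their values with SEL120-34A were 0.04 ± 0.03 and -0.00 ± 0.03, neither past the test. The fall of MCM5 with AML874 at 24 h, -0.08 ± 0.03, did not pass without AML874 replicate 1 or 2 or DMSO replicate 2 (adjusted p = 0.0527 to 0.087).

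CDT1 (chromosome 16, 88803213 to 88809258, plus strand), which loads the MCM ring and is destroyed once S phase begins, crossed DMSO with both compounds. CDT1 had 82.7, 86.6 and 91.5 CPM with AML874, 84.0, 86.0 and 81.8 CPM with SEL120-34A and 88.0, 92.4 and 99.4 CPM with DMSO at 8 h. CDT1 had 109.8, 102 and 102 CPM with AML874, 103, 107 and 102 CPM with SEL120-34A and 94.6, 92.1 and 89.1 CPM with DMSO at 24 h. The AML874 and DMSO libraries overlapped at 8 h, and the fall of -0.10 ± 0.04 (adjusted p = 0.0484) did not pass without AML874 replicate 1 or 2 or DMSO replicate 3 (adjusted p = 0.0635 to 0.147). The fall with SEL120-34A at 8 h was -0.15 ± 0.04, with no overlap. At 24 h all 6 treated libraries lay above the DMSO libraries, with rises of 0.19 ± 0.04 for AML874 and 0.18 ± 0.04 for SEL120-34A. GMNN, geminin, the inhibitor of CDT1, moved the other way at 24 h. It fell, at -0.20 ± 0.03 and -0.20 ± 0.03 at 8 h and at -0.16 ± 0.03 with AML874 and -0.09 ± 0.03 with SEL120-34A after 24 h, the last of these not past the test without SEL120-34A replicate 2 or DMSO replicate 2 or 3 (adjusted p = 0.053 to 0.226). GMNN had 68.5, 65.7 and 67.8 CPM with AML874, 68.5, 64.7 and 68.8 CPM with SEL120-34A and 76.7, 80.4 and 75.6 CPM with DMSO at 8 h. At 24 h GMNN had 56.5, 57.0 and 59.4 CPM with AML874, 61.9, 57.4 and 61.8 CPM with SEL120-34A and 62.4, 64.6 and 66.0 CPM with DMSO, and the treated and DMSO libraries did not overlap. ORC6, a subunit of the origin recognition complex, fell in 3 of the 4 comparisons, at -0.10 to -0.14, and its value with SEL120-34A at 8 h was -0.08 (adjusted p = 0.0363) with the authors' expected counts. ORC1, its largest subunit, passed only with SEL120-34A at 24 h, at 0.07 ± 0.03, and lost this call without any 1 of 5 libraries (adjusted p = 0.0506 to 0.132). CDC6, which bridges ORC and CDT1, passed only with SEL120-34A at 8 h, at -0.10 ± 0.04, and not without DMSO replicate 2 (adjusted p = 0.102).

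Among the 6 genes of helicase activation, 4 fell and 1 rose with each compound at 8 h. At 24 h 4 fell and 1 rose with AML874, and 2 fell and 1 rose with SEL120-34A. Shares of all tested genes were 18.6% to 23.7% lower and 19.1% to 23.1% higher in these comparisons. The 1 rise was GINS4 each time, although GINS1, GINS2, GINS3 and GINS4 encode the 4 subunits of 1 complex. GINS4 had 60.3, 58.5 and 59.1 CPM with AML874, 56.6, 59.7 and 56.1 CPM with SEL120-34A and 51.7, 50.9 and 50.4 CPM with DMSO at 8 h. At 24 h GINS4 had 54.0, 54.5 and 52.6 CPM with AML874, 56.8, 54.9 and 55.0 CPM with SEL120-34A and 46.7, 48.9 and 49.1 CPM with DMSO. All treated libraries lay above all DMSO libraries of their time, with log2 changes of 0.22 ± 0.03 and 0.17 ± 0.03 at 8 h and 0.16 ± 0.03 and 0.20 ± 0.03 at 24 h for AML874 and SEL120-34A. GINS1 fell with AML874 at both times (-0.14 ± 0.03 and -0.25 ± 0.03) and did not pass with SEL120-34A (-0.07 ± 0.03 and -0.07 ± 0.03). GINS2 fell at 8 h with both compounds, at -0.25 ± 0.03 and -0.27 ± 0.03, and GINS3 at -0.15 ± 0.05 and -0.22 ± 0.05. At 24 h GINS2 still fell with AML874 (-0.09 ± 0.03) and GINS3 passed with neither compound. MCM10, which helps to switch the loaded rings on, fell in all 4 comparisons, at -0.12 and -0.29 at 8 h and -0.20 and -0.13 at 24 h. At 8 h MCM10 had 102, 104 and 103 CPM with AML874, 93.3, 88.3 and 93.3 CPM with SEL120-34A and 112, 116 and 108 CPM with DMSO, and no SEL120-34A library reached the AML874 libraries. At 24 h MCM10 had 79.6, 83.0 and 82.4 CPM with AML874, 88.2, 81.6 and 88.2 CPM with SEL120-34A and 92.7, 93.9 and 95.6 CPM with DMSO. CDC45, the helicase partner of GINS, fell in the same comparisons except AML874 at 8 h (-0.05 ± 0.03).

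Of the 8 polymerase genes, POLA1 (chromosome X, 24693919 to 24996986, plus strand) moved furthest on average over the 4 comparisons with DMSO. It encodes the catalytic subunit of the polymerase α-primase complex that starts each new strand. POLA1 had 55.9, 57.0 and 55.1 CPM with AML874, 46.3, 47.4 and 47.5 CPM with SEL120-34A and 72.0, 73.8 and 73.2 CPM with DMSO at 8 h. At 24 h it had 64.1, 68.7 and 68.9 CPM with AML874, 73.3, 73.4 and 69.4 CPM with SEL120-34A and 75.6, 76.3 and 80.8 CPM with DMSO. The 3 groups did not overlap at 8 h, with SEL120-34A lowest. The log2 changes were -0.38 ± 0.03 with AML874 and -0.63 ± 0.03 with SEL120-34A after 8 h, and -0.21 ± 0.03 and -0.11 ± 0.03 at 24 h, the last not past the test without replicate 3 of SEL120-34A or of DMSO (adjusted p = 0.0778 and 0.0683). With SEL120-34A at 24 h POLA2 fell further than POLA1, whereas at 8 h POLA1 fell further than the other subunits of the complex. POLA2, its regulatory subunit, fell, at -0.27 ± 0.05 with SEL120-34A at 8 h, -0.15 ± 0.05 with AML874 at 24 h and -0.21 ± 0.05 with SEL120-34A at 24 h, and with AML874 at 8 h its -0.09 ± 0.05 did not pass. POLA2 had 14.2, 13.9 and 15.7 CPM with AML874, 12.6, 12.7 and 13.2 CPM with SEL120-34A and 15.6, 15.8 and 15.0 CPM with DMSO at 8 h, and its AML874 and DMSO libraries overlapped. At 24 h POLA2 had 12.1, 13.1 and 13.1 CPM with AML874, 12.2, 12.1 and 12.4 CPM with SEL120-34A and 13.7, 14.4 and 14.4 CPM with DMSO, with no overlap between treated and DMSO libraries. With the authors' expected counts in place of the counts, POLA2 was at -0.48 with SEL120-34A at 8 h and at -0.18 (adjusted p = 9e-05) with AML874 at 8 h, and the gap of 0.21 in the first was the largest among the 48 genes and the 4 comparisons. PRIM1, the primase subunit that makes the RNA primer, fell only with SEL120-34A at 8 h (-0.25 ± 0.04), and PRIM2, its partner, passed in none of the 4.

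The replicative polymerases moved little. POLD1, the catalytic subunit of polymerase δ, rose with AML874 at both times (0.14 ± 0.02 and 0.14 ± 0.02) and with SEL120-34A at 24 h (0.11 ± 0.02). POLD3, an accessory subunit of the same enzyme, fell with AML874 at both times (-0.11 ± 0.03 and -0.09 ± 0.03) and did not pass with SEL120-34A (-0.02 ± 0.03 and 0.02 ± 0.03). POLE, the catalytic subunit of polymerase ε, passed in none of the 4 comparisons, with values of -0.02 to 0.05. POLE2, the second subunit of that enzyme, fell with AML874, at -0.21 ± 0.04 at 8 h and -0.17 ± 0.04 at 24 h.

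PCNA, the ring that holds the polymerases on DNA and the transcript with the highest TPM of the 48, fell slightly in all 4 comparisons. PCNA had 346, 336 and 348 CPM with AML874, 336, 344 and 331 CPM with SEL120-34A and 376, 388 and 369 CPM with DMSO at 8 h. PCNA had 308, 313 and 312 CPM with AML874, 325, 314 and 328 CPM with SEL120-34A and 337, 343 and 342 CPM with DMSO at 24 h. No treated library reached a DMSO library of its time, and the changes were -0.14 ± 0.02 and -0.16 ± 0.02 at 8 h and -0.13 ± 0.02 and -0.08 ± 0.02 at 24 h. The genes of the clamp loader subunits RFC2 to RFC5 did not move as 1 group. RFC2 fell at 8 h, at -0.18 ± 0.03 with AML874 and -0.30 ± 0.03 with SEL120-34A, and at 24 h its values were 0.00 ± 0.03 and -0.03 ± 0.03. RFC2 had 72.2, 71.2 and 74.2 CPM with AML874, 67.4, 66.6 and 66.0 CPM with SEL120-34A and 82.2, 83.2 and 81.4 CPM with DMSO at 8 h, with DMSO highest throughout. At 24 h RFC2 had 67.6, 68.2 and 70.0 CPM with AML874, 66.8, 64.2 and 70.1 CPM with SEL120-34A and 68.7, 68.7 and 68.2 CPM with DMSO, and the groups overlapped. RFC3 fell with SEL120-34A at 8 h (-0.10 ± 0.03) and AML874 at 24 h (-0.11 ± 0.03). RFC4 rose with SEL120-34A at 8 h (0.09 ± 0.03) and RFC5 with AML874 at 8 h (0.09 ± 0.03). Each of these rises lost the call without any 1 of 4 libraries (adjusted p = 0.063 to 0.225 for RFC4 and 0.0538 to 0.146 for RFC5). DSCC1, part of the loader variant used in sister chromatid cohesion, fell in the comparisons other than AML874 at 8 h, at -0.14 to -0.16. By name, 8 of the 48 genes, PCNA, RFC3, RFC5, RRM2 and TYMS among them, have 14 pseudogenes in the annotation, and reads with several alignments are in no gene count.

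Of the 3 genes of strand processing, UNG moved furthest. UNG, the glycosylase that removes uracil from DNA, fell, at -0.33 ± 0.04 and -0.38 ± 0.04 at 8 h. UNG had 94.9, 98.9 and 103 CPM with AML874, 97.5, 90.3 and 97.8 CPM with SEL120-34A and 126, 129 and 117 CPM with DMSO at 8 h, with no overlap between treated and DMSO libraries. UNG had 94.6, 98.1 and 99.9 CPM with AML874, 109, 102 and 109 CPM with SEL120-34A and 105, 106 and 103 CPM with DMSO at 24 h, and the change was -0.10 ± 0.04 with AML874, not past the test without AML874 replicate 1 or DMSO replicate 1 or 2 (adjusted p = 0.0539 to 0.115), and 0.03 ± 0.04 with SEL120-34A, not past the test. FEN1, which trims the flaps of lagging strand fragments, fell in 3 of 4 comparisons, at -0.08 to -0.14. LIG1, the ligase that joins those fragments, fell with SEL120-34A at 8 h and 24 h (-0.23 ± 0.03 and -0.08 ± 0.03) and did not pass with AML874 (-0.06 ± 0.03 and 0.01 ± 0.03).

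RRM2 (chromosome 2, 10120698 to 10131419, plus strand), the small subunit of ribonucleotide reductase, which makes deoxyribonucleotides and is itself limiting for them in S phase, fell most of the nucleotide supply genes. RRM2 had 285, 285 and 289 CPM with AML874, 291, 301 and 292 CPM with SEL120-34A and 434, 431 and 434 CPM with DMSO at 8 h. RRM2 had 265, 272 and 268 CPM with AML874, 289, 281 and 286 CPM with SEL120-34A and 393, 392 and 388 CPM with DMSO at 24 h. No treated library reached a DMSO library of its time, and the log2 changes were -0.60 ± 0.02 and -0.56 ± 0.02 at 8 h and -0.54 ± 0.02 and -0.45 ± 0.02 at 24 h for AML874 and SEL120-34A. As percent changes these are -33.8% and -32.0% at 8 h and -31.3% and -27.0% at 24 h. RRM1, the large subunit of the same enzyme, also fell in all 4 comparisons, but at -0.12 and -0.25 at 8 h and -0.12 and -0.15 at 24 h. TK1, the S-phase thymidine kinase, fell in all 4, at -0.11 to -0.17. TYMS, thymidylate synthase, passed only at 24 h, at -0.07 ± 0.03 and -0.11 ± 0.03.

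Of the 5 genes of chromatin assembly and the checkpoint, UHRF1, CLSPN and SLBP fell in all 4 comparisons. UHRF1, which recruits the maintenance DNA methyltransferase to newly copied DNA, had 185, 189.8 and 196 CPM with AML874, 186, 182 and 183 CPM with SEL120-34A and 261, 269.9 and 244 CPM with DMSO at 8 h. At 24 h UHRF1 had 163, 172 and 174 CPM with AML874, 198, 184 and 198 CPM with SEL120-34A and 218, 226 and 212 CPM with DMSO. The AML874 and SEL120-34A libraries lay below DMSO at both times, and at 24 h SEL120-34A lay between AML874 and DMSO. Its changes were -0.44 ± 0.03 and -0.49 ± 0.03 at 8 h and -0.37 ± 0.03 and -0.18 ± 0.03 at 24 h. CLSPN, claspin, which carries the ATR checkpoint signal to CHK1, changed by -0.36 ± 0.04 and -0.43 ± 0.04 at 8 h and -0.38 ± 0.04 and -0.22 ± 0.04 at 24 h. SLBP, which binds the stem-loop of histone messages, changed by -0.24, -0.35, -0.22 and -0.15 in the same order. CHAF1A, the large subunit of the histone chaperone CAF-1, fell with both compounds at 8 h and with AML874 at 24 h (-0.07 to -0.23), and CHAF1B, its partner, passed in none of the 4.

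Calls were also counted over the 4 comparisons with DMSO, in either direction. Of the 48 genes, 17 passed in all 4, 13 in 3, 10 in 2, 5 in 1 and 3 in none. The 17 include GINS4, higher in all 4, and CDT1 and MCM7, lower at 8 h and higher at 24 h with SEL120-34A. At each time the comparisons of the 2 compounds share their DMSO libraries, and the same count over all tested genes was not made. The 23 genes with an E2F element in a window had a median log2 change of -0.15 with AML874 and -0.22 with SEL120-34A after 8 h, and -0.11 and -0.07 at 24 h. The 18 genes with windows but no such element had medians of -0.08 and -0.15 at 8 h, and -0.06 and -0.05 at 24 h. Of the 23 genes, 17 and 19 fell at 8 h and 16 and 10 at 24 h. Of the 18 genes, 9 and 12 fell at 8 h and 9 and 7 at 24 h. Among all tested genes 19.9% and 22.6% fell at 8 h and 23.7% and 18.6% at 24 h. CCNE2, E2F8, MCM4, MCM5, GINS4, POLD3 and DSCC1 had no window and are in neither set. The difference between the 23 and the 18 genes was not tested.

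The 2 compounds were compared directly at each time, over all genes, which gave 96 comparisons for the 48 genes. AML874 cells had higher levels than SEL120-34A cells at 8 h for 23 genes and lower levels for 2, where 16% of all genes were higher and 15.2% lower. At 24 h 15 genes were lower and 2 higher with AML874, against 11.6% and 8% of all genes. Among the genes called, SEL120-34A thus mostly had the lower level at 8 h and AML874 at 24 h, and whether the difference between the compounds changed with time was not tested. Leaving out 1 library ended 9 of the 25 calls at 8 h (CDC45, CDC6, E2F1, E2F2, MCM6, POLA2, POLD3, POLE2, RFC3) and 6 of the 17 at 24 h (CLSPN, LIG1, POLA1, PRIM1, SLBP, UNG). All 5 G1/S regulators were higher with AML874 at 8 h, by 0.10 to 0.28 on the log2 scale, and of them only E2F2 passed at 24 h, at -0.20 ± 0.03. The 8 h difference of E2F1, 0.12 ± 0.04, was 0.08 (adjusted p = 0.2) without the 4 libraries highest on the first component, and did not pass without AML874 replicate 2 or 3 or SEL120-34A replicate 2 (adjusted p = 0.0705 to 0.171). POLA1 was 0.25 ± 0.03 at 8 h and -0.10 ± 0.03 at 24 h, the 24 h value not past the test without AML874 replicate 1 or SEL120-34A replicate 1 or 2 (adjusted p = 0.0838 to 0.206), nor without those 4 libraries. Of the MCM2-7 genes, 3 were higher with AML874 at 8 h and 5 lower at 24 h, and MCM5 and MCM6 passed at both times. MCM6 had 322, 322 and 320.2 CPM with AML874, 307, 300.2 and 302 CPM with SEL120-34A and 349.7, 363 and 339.5 CPM with DMSO at 8 h. At 24 h MCM6 had 285, 302 and 299 CPM with AML874, 336, 308 and 331 CPM with SEL120-34A and 326, 324 and 327 CPM with DMSO. The AML874 libraries lay above those of SEL120-34A at 8 h and below them at 24 h, without overlap. MCM5 had 302, 314 and 316 CPM with AML874, 289.9, 282 and 289 CPM with SEL120-34A and 343, 367 and 340.5 CPM with DMSO at 8 h. At 24 h MCM5 had 332, 336 and 343 CPM with AML874, 376, 351 and 373 CPM with SEL120-34A and 355, 363 and 350.0 CPM with DMSO, again with AML874 above SEL120-34A first and below it later. The log2 differences of MCM6 and MCM5 were 0.09 ± 0.03 and 0.11 ± 0.03 at 8 h, and -0.14 ± 0.03 and -0.12 ± 0.03 at 24 h, and MCM7, which did not pass at 8 h (0.03 ± 0.02, 95% interval -0.02 to 0.08), was -0.20 ± 0.02 at 24 h. POLD3 was lower with AML874 at both times, -0.08 ± 0.03 and -0.11 ± 0.03. POLD3 had 67.4, 67.5 and 65.9 CPM with AML874, 69.4, 72.9 and 70.6 CPM with SEL120-34A and 69.9, 74.6 and 71.8 CPM with DMSO at 8 h. At 24 h POLD3 had 62.8, 65.2 and 63.7 CPM with AML874, 69.4, 69.3 and 68.2 CPM with SEL120-34A and 67.9, 68.4 and 68.0 CPM with DMSO, where SEL120-34A and DMSO overlapped and AML874 lay below both. The 8 h difference of E2F2 passed in 2 of the 6 fits that left out 1 of the libraries compared (adjusted p of the others 0.0538 to 0.105), and so did that of MCM6 (0.0504 to 0.0626). That of POLD3 did not pass without AML874 replicate 3 or SEL120-34A replicate 2 (adjusted p = 0.085 and 0.128). No called difference between the compounds reached 0.3. RRM2 differed by -0.04 ± 0.02 at 8 h (95% interval -0.09 to 0.01), which did not pass, and -0.09 ± 0.02 at 24 h. Since no dose is stated, these values compare the cultures as treated, and AML874 is a code name whose structure was not compared.

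Whether the effect of a compound changed with time was tested as its 24 h change minus its 8 h change. With AML874 this difference was positive for 9 genes and negative for 2, where 11.1% of all genes were positive and 12.5% negative. With SEL120-34A it was positive for 26 genes and negative for 0, against 14.2% and 13% of all genes. By edgeR the count of negative differences with SEL120-34A was also 0 at an unadjusted p under 0.05, and DESeq2 gave 0. With library totals alone the count with SEL120-34A was 19 positive and 3 negative, with 29.1% of all calls positive where the scaling used here gave 52.2%, and with AML874 4 positive and 7 negative, with 30.7% against 47.1%. The sign for AML874 as a group thus rests on the scaling, and that for SEL120-34A was positive under both. When genes had to reach 1 CPM in 3 libraries, 13527 were tested. Of all these genes, the difference was positive for 3059 and negative for 2524 with SEL120-34A. With AML874 it was positive for 2746 and negative for 2208 of them. The 6 MCM2-7 genes all passed with SEL120-34A, at 0.20 to 0.34, and MCM2 (0.10 ± 0.03) and MCM7 (0.11 ± 0.03) also with AML874, neither of which passed without AML874 replicate 3 at 24 h (adjusted p = 0.0619 and 0.0664). POLA1 had the largest difference, 0.53 ± 0.05 with SEL120-34A and 0.18 ± 0.05 with AML874. E2F2 was 0.41 ± 0.05 with SEL120-34A, UNG 0.41 ± 0.05 and UHRF1 0.32 ± 0.05, while RRM2 passed with a small difference (0.10 ± 0.03) and CCNE2 (0.03 ± 0.06) did not pass. The largest falls with AML874 did not pass this test: E2F2 was 0.11 ± 0.05, CCNE2 -0.06 ± 0.06, RRM2 0.05 ± 0.03 and UHRF1 0.07 ± 0.05. CDC45 and RFC3 became more negative with AML874, -0.15 ± 0.04 and -0.12 ± 0.04. RFC3 did not pass without any 1 of 8 libraries, and was -0.06 (adjusted p = 0.327) without the 4 libraries highest on the first component. CDC45 did not pass without AML874 replicate 3 at 8 h or DMSO replicate 3 at 24 h (adjusted p = 0.0533 and 0.0629). CDT1 had positive differences with both compounds, 0.29 ± 0.06 and 0.33 ± 0.06.

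**Figure D3:**
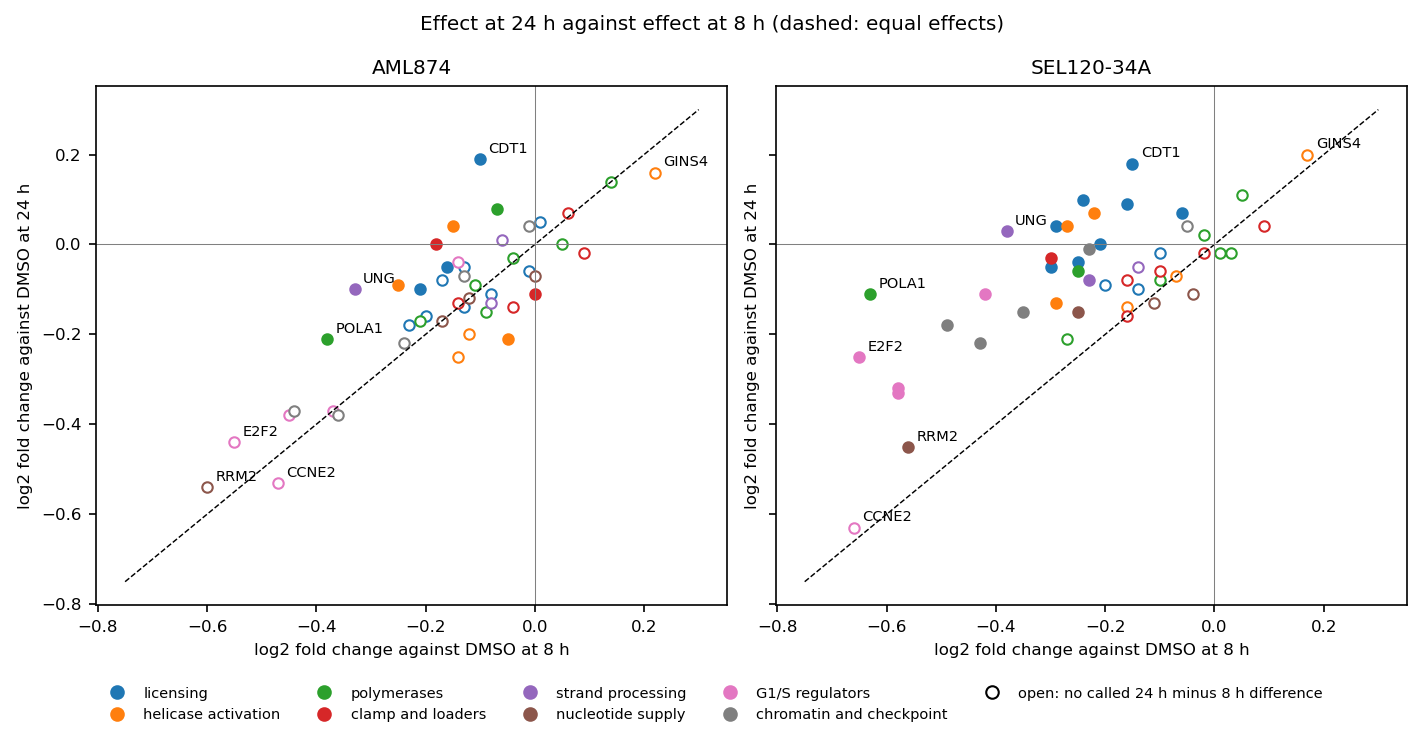
Log2 fold change against DMSO at 24 h (y axis) and at 8 h (x axis) of the 48 genes, by compound and role; the dashed line marks equal effects, and filled points have a called difference between the times. With SEL120-34A 26 genes lie above the line as filled points and none below it, and CCNE2 lies close to it.

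The control cells also changed with time. With DMSO, 35 of the 48 genes were lower at 24 h than at 8 h and 2 higher, where 22.7% of all genes were lower and 19.8% higher, and the median change was -0.15. CDC6 (-0.30 ± 0.04), CCNE1 (-0.28 ± 0.05), FEN1 (-0.28 ± 0.03) and GMNN (-0.27 ± 0.03) fell most. E2F8 (0.30 ± 0.04) and POLA1 (0.09 ± 0.03) were the 2 that rose, POLA1 not without DMSO replicate 1 at 8 h or replicate 3 at 24 h (adjusted p = 0.0512 and 0.135). Leaving out 1 library ended 9 of these 37 calls (CDC45, E2F2, GINS1, GINS4, MCM4, MCM6, POLA1, POLA2, POLD3). With library totals alone 26 fell and 5 rose, with 57.1% of all calls rises against 46.7%. The gap to DMSO and the level are different quantities here: with AML874 the gap of MCM6 to DMSO was alike at both times (-0.14 ± 0.03 at 24 h and -0.13 ± 0.03 at 8 h), while its AML874 libraries, listed above, were lower at 24 h. The mean log2 CPM of the 48 genes was 6.39 to 6.43 with AML874, 6.43 to 6.48 with SEL120-34A and 6.53 to 6.54 with DMSO at 24 h, against 6.50 to 6.53, 6.43 to 6.45 and 6.64 to 6.70 at 8 h. With SEL120-34A the summary thus hardly moved between the times while that of DMSO was lower at 24 h. The 3 DMSO libraries of 8 h had the highest means of all. The same libraries enter the 8 h changes, the change of DMSO with time and the 24 h minus 8 h differences. These results are therefore not independent.

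Genes around the 48 were read from lists by function. Of all tested genes, 19.9% fell and 19.7% rose with AML874 and 22.6% fell and 22.4% rose with SEL120-34A after 8 h, and 23.7% fell and 23.1% rose with AML874 and 18.6% fell and 19.1% rose with SEL120-34A after 24 h, and several counts of the lists lie near these shares. Of 29 other genes of E2F, RB and cyclin control, 19 fell and none rose with AML874 at 8 h, 19 fell and 3 rose with SEL120-34A at 8 h, 17 fell and 4 rose with AML874 at 24 h, and 15 fell and 5 rose with SEL120-34A at 24 h. FBXO5, which encodes the anaphase-promoting complex inhibitor EMI1 and is itself an E2F target, changed by -0.50 ± 0.03 and -0.56 ± 0.03 at 8 h and -0.50 ± 0.03 and -0.39 ± 0.03 at 24 h. CCND3, cyclin D3, was at -0.30 ± 0.04 and -0.27 ± 0.04 at 8 h and -0.67 ± 0.04 and -0.53 ± 0.04 at 24 h, and fell in all 4 comparisons. Of 40 other replication factors, 12 fell and 10 rose with AML874 and 16 fell and 8 rose with SEL120-34A at 8 h, and at 24 h 13 fell and 13 rose with AML874 and 12 fell and 12 rose with SEL120-34A. DONSON, which helps to build the active helicase, fell, at -0.47 ± 0.04 and -0.50 ± 0.04 at 8 h and -0.26 ± 0.04 and -0.40 ± 0.04 at 24 h. RNASEH2B, a subunit of the RNase that clears ribonucleotides from DNA, rose at 24 h by 0.40 ± 0.02 and 0.39 ± 0.02. Of 20 other genes of nucleotide synthesis, 5 fell and 7 rose with AML874 and 8 fell and 5 rose with SEL120-34A at 8 h, and 7 fell and 7 rose with AML874 and 5 fell and 9 rose with SEL120-34A at 24 h. DCTD, which supplies the substrate of thymidylate synthase, fell in all 4 comparisons, at -0.35 ± 0.03 and -0.49 ± 0.03 at 8 h and -0.27 ± 0.03 and -0.28 ± 0.03 at 24 h. IMPDH2, the rate-limiting enzyme of guanine nucleotide synthesis, was higher with AML874 (0.06 ± 0.02) and lower with SEL120-34A (-0.17 ± 0.02) at 8 h, and higher with both at 24 h (0.21 ± 0.02 and 0.15 ± 0.02). Of 20 genes of replication stress and repair, 7 fell and 5 rose with AML874 and 11 fell and 3 rose with SEL120-34A at 8 h, and 7 fell and 4 rose with AML874 and 4 fell and 7 rose with SEL120-34A at 24 h. EXO1, an exonuclease of mismatch and break repair, fell with AML874 at 8 h (-0.27 ± 0.03) and 24 h (-0.18 ± 0.03), and with SEL120-34A at 8 h (-0.50 ± 0.03) but did not pass at 24 h (-0.04 ± 0.03). FANCD2, of the Fanconi anaemia pathway of crosslink repair, rose at 8 h by 0.13 ± 0.03 and 0.17 ± 0.03, and at 24 h was 0.03 ± 0.03 with AML874, which did not pass, and 0.17 ± 0.03 with SEL120-34A, a rise.

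Genes of mitosis, which are expressed later in the cycle, were counted in the same way, against the same shares of all genes. Of 26 mitosis genes, 10 fell and 4 rose with AML874 at 8 h, 3 fell and 10 rose with SEL120-34A at 8 h, 18 fell and 2 rose with AML874 at 24 h, and 12 fell and 2 rose with SEL120-34A at 24 h. MKI67, the proliferation marker Ki-67, changed by -0.14 ± 0.03 with AML874 and 0.07 ± 0.03 with SEL120-34A after 8 h, and by -0.48 ± 0.03 and -0.16 ± 0.03 at 24 h. ANLN, the cytokinesis protein anillin, fell in all 4, at -0.35 ± 0.03 and -0.28 ± 0.03 at 8 h and -0.52 ± 0.03 and -0.23 ± 0.03 at 24 h. The 24 h effect minus the 8 h effect was negative for 16 of the 26 mitosis genes with AML874 and 14 with SEL120-34A and positive for none, where 12.5% and 13% of all genes were negative; among the 48 genes it was positive for 9 and negative for 2 with AML874, and positive for 26 with SEL120-34A. The edgeR counts of 0 for rising HIF targets, rising E2F, RB and cyclin genes with AML874 at 8 h, rising licensing genes at 8 h, MCM2-7 subunits lower with SEL120-34A at 24 h and positive mitosis genes with SEL120-34A were also 0 at an unadjusted p under 0.05 and with DESeq2, and positive mitosis genes with AML874 numbered 1 at an unadjusted p under 0.05 and 0 with DESeq2. The plot of called shares sets these lists side by side.

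**Figure D4:**
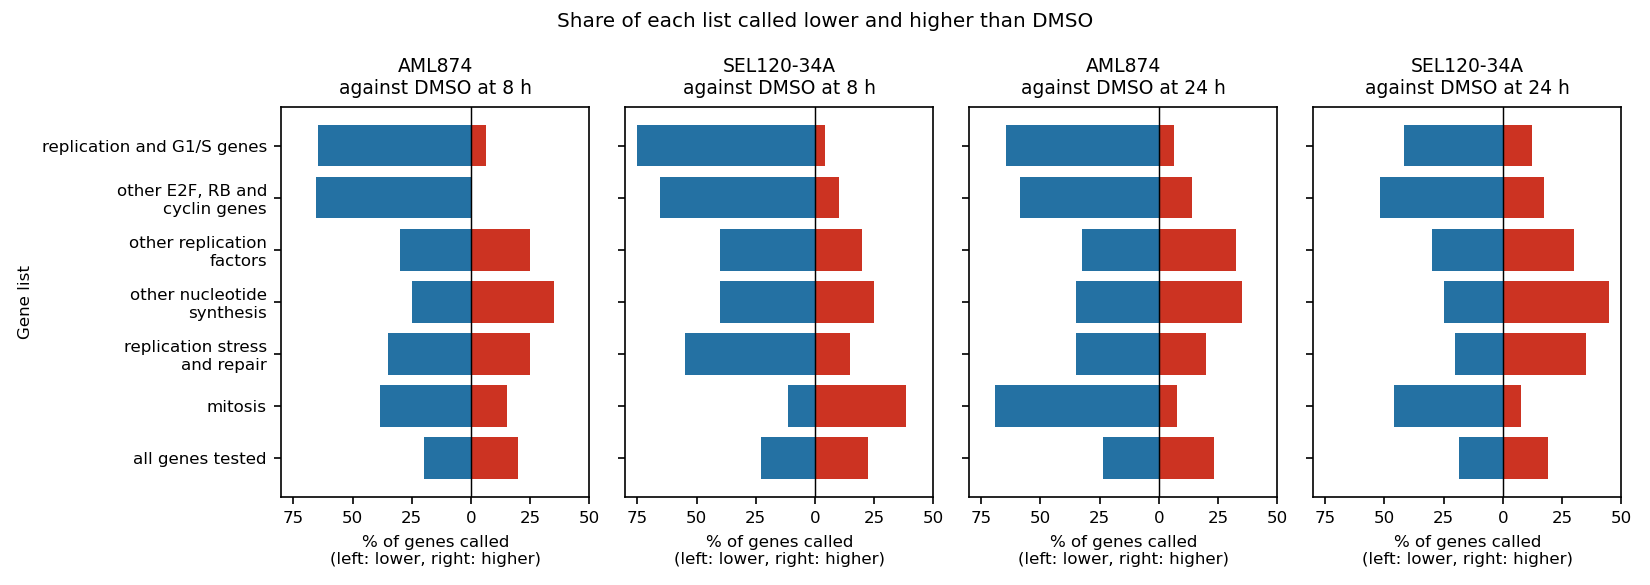
Share of each gene list, in percent of its tested genes, called lower (left of 0) and higher (right of 0) than DMSO at an adjusted p under 0.05, for each compound and time, with all 20920 tested genes at the bottom. The 48 genes and the other E2F, RB and cyclin genes lean to the left in all 4 panels, and mitosis genes lean right with SEL120-34A at 8 h.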

How the data were processed

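RNA was prepared with TRIzol and an RNeasy column and selected for polyadenylated transcripts, per the labels' protocols. Reads were aligned to GRCh38 with STAR 2.7.1a and quantified with RSEM 1.3.2, per the submitters' processing notes; the annotation release is not given in the sources used here. The authors deposited read counts per gene in the layout of STAR, unstranded and for each strand, and RSEM expected counts and TPM. The deposited reverse-strand counts were used, since they were 1.045 to 1.049 times the unstranded ones and the forward strand held 6.27 to 6.66% as many. The lines for reads outside genes (21.94 to 25.52% of reads) were left out. Symbols were found for 60295 of 60609 identifiers, and positions came from GENCODE release 29. Promoters are from RefSeq, GRCh38.p14.

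Genes were filtered with filterByExpr (minimum count 10), which kept 20920, scaled with TMM and fitted with 6 group means (12 residual degrees of freedom) in edgeR 4.0.16 (R 4.3.3) with robust quasi-likelihood F tests. Calls needed an adjusted p (Benjamini-Hochberg, all tested genes) under 0.05. CPM relate counts to the TMM-scaled library size, errors of fold changes are standard errors, and intervals are 95%. The authors' TPM serve to compare levels between genes. The same replicate number in different groups did not pair libraries (correlations of deviations -0.06 to 0.06), so no block was used. The method was also run on simulated counts, drawn independently for each gene and library with the fitted spread. Such counts lack variation that genes share within a library, so they do not test that part of the real spread. Python 3.11.15 and pandas 2.3.3 made the tables. Alternatives were other size factors, library totals alone, 2 other filters, unstranded counts, rounded expected counts, DESeq2, a replicate block, a fit of only the groups compared and leaving out each library, or the 4 libraries highest on the first component of variation within groups.

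The 48 genes, the lists and the tests were chosen with earlier results of these data known. Library values are given for the member with the largest mean change in each role (2 in roles of 6 or more), for members called in opposite directions, and for those called between the compounds at both times (the 4 of 8 with the smallest p at 24 h). Each other list is given by its counts and the changes of the 2 genes with the smallest p at 24 h. Values of E2F1 libraries were added after they were seen.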

Additional observations from a re-analysis of the deposited data

Results flagged for a closer look

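For 37 effects on 28 genes, the 24 h change minus the 8 h change, a test of the difference itself in edgeR's quasi-likelihood model, passed an adjusted p of 0.05. On the log2 scale the differences with AML874 were 0.29 for CDT1, 0.22 for UNG, 0.18 for POLA1, 0.18 for GINS3, 0.18 for RFC2, 0.16 for GINS2, 0.15 for PRIM1, 0.11 for MCM7 and 0.10 for MCM2, and CDC45 at -0.15 and RFC3 at -0.12 were negative. With SEL120-34A the licensing genes were at 0.34 (MCM7), 0.33 (MCM5), 0.33 (CDT1), 0.25 (MCM2), 0.25 (MCM3), 0.21 (MCM6), 0.20 (MCM4) and 0.14 (ORC1). Among the genes of helicase activation, polymerases and the clamp loader, POLA1 was at 0.53, GINS2 at 0.31, GINS3 at 0.29, RFC2 at 0.27, PRIM1 at 0.20 and MCM10 at 0.16. UNG was at 0.41, LIG1 at 0.15, RRM1 at 0.10 and RRM2 at 0.10. The regulators were at 0.41 (E2F2), 0.31 (CCNE1), 0.25 (E2F1) and 0.25 (E2F8), and the chromatin and checkpoint genes at 0.32 (UHRF1), 0.22 (CHAF1A), 0.21 (CLSPN) and 0.20 (SLBP). With AML874, GINS3 and RFC3 each lost the call without any 1 of 8 libraries, PRIM1 without any 1 of 6, and CDC45 without any 1 of 2; RFC3 was at -0.06 (adjusted p = 0.327) without the 4 libraries highest on the first component. RRM1 lost it with SEL120-34A without any 1 of 3. The differences of the 2 compounds share the DMSO libraries of both times.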

How the results depend on the processing

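Of 7488 values of single genes under the alternatives, 6840 kept their direction and their side of the threshold, 271 lost a call, 143 gained one, 234 that were not called changed sign, and no called value reversed. With library totals alone, 5 genes rose with AML874 at 8 h, 5 with SEL120-34A at 8 h and 5 from 8 h to 24 h with DMSO; the late minus early effect was positive for 4 and negative for 7 with AML874, and negative for 3 with SEL120-34A. With a filter of 1 CPM in 3 libraries, 7 genes rose with AML874 at 24 h and 4 with time in DMSO, and the late effect of AML874 was positive for 14 and negative for 1, as it was for 1 with a filter of 1 count. Without the 4 libraries highest on the first component, 1 rose with SEL120-34A at 8 h and 5 with AML874 at 24 h, and the late effect of AML874 was positive for 15 and negative for 0. Genes lower with AML874 than with SEL120-34A at 8 h numbered 1 with expected counts and 1 with a replicate block. The replicate block changed no other count of calls by over 1.5 times; the numbers do not pair the libraries. The cause of these shifts was not tested. Leaving out 1 library gave 5 to 13 positive and 0 to 3 negative late effects of AML874 (5 without its replicate 3 at 24 h), 1 to 2 rises with SEL120-34A at 8 h, 3 to 5 with AML874 at 24 h, 1 to 4 with time in DMSO, 0 to 2 genes lower with AML874 than SEL120-34A at 8 h and 0 to 2 higher at 24 h. Falls ranged from 29 to 35 with AML874 and 35 to 39 with SEL120-34A at 8 h, and from 25 to 31 and 17 to 22 at 24 h. Every count that moved by over 1.5 times was of 9 genes or fewer. DESeq2 ended 1 of the 132 calls against DMSO and added 2. All 48 genes lay far above the limit that a count of 0 allows.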
